A study of Mus musculus with 8 samples.

Results

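Foxp3 regulatory T cells (Tregs) of the mouse liver are described here. A cell was counted as a Treg when it held at least 1 UMI of Foxp3 and at least 1 UMI of Cd3d, Cd3e or Cd3g, and no UMI of Cd8a, Cd8b1, Cd79a or Csf1r. Of 80474 liver cells that passed the filters on genes and mitochondrial UMIs, 470 met this rule. A UMI, or unique molecular identifier, tags 1 captured mRNA molecule.

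Single liver cells were captured with the 10x Genomics Chromium 3' kit (V3) from 8 wild-type C57BL/6 mice, each giving 1 library. Of these mice, 2 were controls on normal diet and drinking water. Another 3 received high-fat diet, fructose solution and injections of CCl4 (HFD+F+CCl4), and 3 received western diet with fructose solution and the same injections (WD+F+CCl4), all for 16 weeks. CCl4 is carbon tetrachloride, a liver toxin, and every NASH mouse received it together with its diet, so the effects of the diet and of CCl4 cannot be told apart. "NASH" below means the mice of both models together. The livers were dissociated with enzymes, red blood cells were lysed and dead cells were removed before capture, and T cells were not sorted.

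Tregs are CD4 T cells that restrain other lymphocytes. The transcription factor Foxp3 fixes their identity, the high-affinity IL-2 receptor chain Il2ra (CD25) lets them take up IL-2, and Ctla4 removes costimulation from antigen-presenting cells. In tissues such as the liver, part of the Tregs acquires an effector form marked by Klrg1 and by the IL-33 receptor Il1rl1 (ST2).

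The 8 mice contributed very different numbers of Tregs. There were 74 in control replicate 1 and 11 in control replicate 2. The livers of the HFD+F+CCl4 model yielded 33, 91 and 138, and those of the WD+F+CCl4 model 46, 29 and 48. The UMIs summed over these cells were 287808 and 19172 in the controls, 83173 to 506256 under HFD+F+CCl4 (median 332294), and 60663 to 147964 under WD+F+CCl4 (median 132308). Whole libraries held between 6135827 UMIs (control replicate 2) and 64855024 UMIs (WD+F+CCl4 replicate 3). A Treg had a median of 2310 UMIs. With 3 counts as the limit of a count of 0, a gene with no UMI in the Tregs of control replicate 2 could still stand at 156 CPM (counts of a gene scaled to the total UMIs of the summed cells of a mouse), against 10.4 CPM in control replicate 1 and 5.93 CPM in HFD+F+CCl4 replicate 3. Intervals and limits cover counting error only.

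The rule left some cells close to its limits. Exactly 1 Foxp3 UMI was found in 188 of the 470 Tregs, 282 held 2 or more, and the highest count was 14. Exactly 1 CD3 UMI was found in 29. A Cd4 UMI, which the rule did not require, was present in 192. Among all kept cells 830 held a Foxp3 UMI, and 360 of these fell outside the rule. Of the latter, 84 had no CD3 UMI. Of those with CD3, a CD8 UMI was present in 69, a Cd79a UMI in 44 and a Csf1r UMI in 200. Barcodes with a high doublet score made up 18 of the 470 Tregs, and 6 Tregs carried a barcode sequence that also occurred in another library.

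Foxp3 UMIs were also seen in cells that should lack the gene. A Foxp3 UMI was present in 14 of 5083 B cells (0.275%, median 1708 UMIs) and in 37 of 41682 Csf1r cells (0.0888%, median 4884 UMIs). In control replicate 2, Foxp3 was found in 0.882% of the CD3-positive, CD8-negative cells (11 of 1247, median 998 UMIs) and in 1.08% of the B cells (5 of 465, median 986 UMIs), so its Treg share did not exceed the background measured in the same library. With cells thinned to 1000 UMIs the shares were 1.22% (8 of 658) and 0.889% (2 of 225), so the order turned with counts this small. In control replicate 1 the corresponding shares were 1.93% and 0.357%. B cells of the NASH mice gave 1 Foxp3-positive cell in all, in WD+F+CCl4 replicate 1.

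The control libraries also stood apart from the NASH libraries over all kept cells, and this touches each comparison of Tregs between the groups. Over all kept cells, mt-Nd3, a mitochondrial gene, stood at 3.10 and 4.52 CPM in the controls and between 521 and 1402 CPM in the NASH mice. The mitochondrial pseudogene Gm28438 stood at 457 and 259 CPM in the controls and at no more than 1.38 CPM in any NASH library. Within B cells, CD8 T cells and conventional CD4 T cells, mt-Nd3 stood at no more than 5.46 CPM in the controls and at no less than 622 CPM in NASH. At least 10-fold differences in every library of one kind against every library of the other were found for 24 genes that were higher in NASH, among them C1qa, C1qb, Trem2 and mt-Nd3, and for 21 that were higher in control, among them Mup3, Serpina3k, Lef1 and Gm28438. Both counts used a limit of 20 CPM. No source used here says whether the libraries of the groups were prepared and sequenced together. The header of the count matrix names Cell Ranger 4.0.0, an earlier version than the methods give. A difference in preparation, sequencing or counting and the treatment cannot be told apart.

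The question of how abundant Tregs were in the fibrotic livers depended on the denominator. Among CD3-positive, CD8-negative cells (8745 cells without Cd79a or Csf1r UMIs, called T gate cells here), Tregs made up 1.93% in control replicate 1 and 0.882% in control replicate 2. In the HFD+F+CCl4 mice they made up 10.51%, 15.91% and 19.83%, and in WD+F+CCl4 mice 7.93%, 4.33% and 5.83%. All 6 NASH mice lay above both controls, and all HFD+F+CCl4 mice lay above all WD+F+CCl4 mice. The means were 1.40% ± 0.738 (SD, n = 2) in control, 15.4% ± 4.68 (SD, n = 3) in HFD+F+CCl4 and 6.03% ± 1.81 (SD, n = 3) in WD+F+CCl4. NASH mice exceeded controls by 9.32 percentage points, a ratio of 7.64 (exact two-sided permutation test, p = 0.0714, adjusted p = 0.2 over 8 share comparisons, smallest p possible 0.0357). Each model differed from control, and the models from each other, with an exact permutation p of 0.1, the smallest those group sizes allow (adjusted p = 0.2). The difference between NASH and control was 8.80 points without control replicate 2 and 9.84 points without control replicate 1, and the ratio was 5.57 and 12.15.

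A deeper cell is more likely to show a Foxp3 UMI, and library depth differed between the mice. When every cell was thinned to 1000 UMIs, Tregs made up 1.30% and 1.22% of the T gate cells in the controls, 6.85%, 9.09% and 11.9% in HFD+F+CCl4 mice and 4.36%, 2.66% and 4.02% in WD+F+CCl4 mice. The order of the groups and their separation were the same as without thinning (exact permutation p = 0.107), but the difference between NASH and control was smaller, 5.22 points, a ratio of 5.16. Of the sum of Tregs and conventional CD4 T cells (Cd4 UMI, no Foxp3 UMI, otherwise as the Tregs), Tregs made up 9.75% and 9.24% in the controls, 49.25%, 50.84% and 50% in HFD+F+CCl4 mice and 36.8%, 18.5% and 12.2% in WD+F+CCl4 mice. With a Cd4 UMI required of both kinds of cells, the Treg shares were 4.99% and 1.82% in the controls, 27.7%, 30.2% and 28.1% under HFD+F+CCl4, and 18.6%, 7.91% and 5.495% under WD+F+CCl4, where replicate 3 (20 of 364 cells) lay close to control replicate 1 (36 of 721).

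Of all kept liver cells, the difference between NASH and control did not hold up against the spread between mice. Tregs made up 0.686% and 0.264% in the controls, 0.295%, 0.899% and 1.30% in HFD+F+CCl4 mice and 0.383%, 0.295% and 0.410% in WD+F+CCl4 mice. The groups overlapped, the difference was 0.121 percentage points (exact permutation p = 0.679, adjusted p = 0.776), and its sign changed with several settings. Conventional CD4 T cells numbered 685 and 108 in the controls and between 34 and 344 in the NASH mice, while cells with Csf1r UMIs and no CD3 numbered 528 and 196 in the controls and between 6117 and 7577 in the NASH mice. From these shares, more Tregs, fewer other T gate cells and a different capture of cells cannot be told apart.

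**Figure D1:**
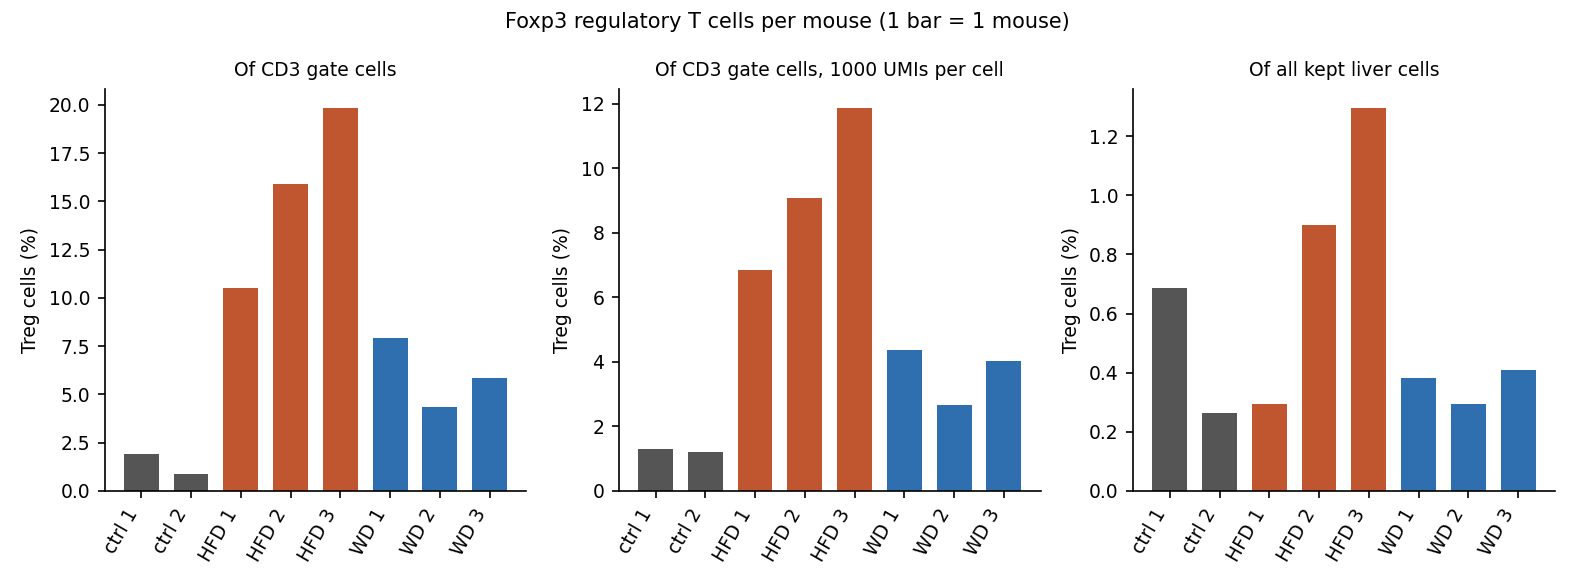
Treg cells in each of the 8 mice (x axis, 1 bar per mouse) as a percentage (y axis) of T gate cells, of T gate cells thinned to 1000 UMIs, and of all kept liver cells. In the left and middle panels the 6 NASH mice sit above both controls, from 4.33% to 19.8% against 0.882% and 1.93% before thinning, whereas in the right panel control replicate 1 (0.686%) exceeds 4 of the NASH mice.

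The label was checked with markers that the rule did not use. At 1000 UMIs per cell, Ikzf2, which encodes the Ikaros-family factor Helios, was detected in 71.8% of 454 Tregs, in 12.8% of conventional CD4 T cells, in 7.32% of CD8 T cells and in 0.828% of B cells. Il2ra was detected in 23.6% of Tregs, 5.94% of conventional CD4 T cells and 1.29% of CD8 T cells. Ctla4 was detected in 24.7%, 3.55% and 3.51% of these classes. In control replicate 2, whose share of Foxp3-positive cells was close to that of its B cells, the 11 Tregs had 1252 CPM of Ikzf2 against 71.0 CPM in its conventional CD4 T cells. Foxp3 itself, which chose the cells, ranged from 618 to 956 CPM in the Tregs of the 8 mice.

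Transcripts that define other cells were present at low levels in the Tregs. All 18 hepatocyte-secreted genes were found, led by Apoe, and they made up 0.260% and 0.391% of Treg UMIs in the controls, 0.618%, 0.339% and 0.0624% in HFD+F+CCl4 mice and 0.0804%, 0.0956% and 0.129% in WD+F+CCl4 mice. All 16 myeloid markers were found, led by Cst3, at 0.102% and 0.350% in the controls and 0.152% to 0.414% in the NASH mice. All 9 B cell markers were found, led by Ighm, at 0.125% and 0.344% in the controls and 0.0703% to 0.108% in the NASH mice. Ly6g among 8 granulocyte markers, Eomes among 8 NK cell markers, Lrat among 8 stellate markers, and Krt7, Krt19 and Sox9 among 6 cholangiocyte markers had no UMI in any Treg. All 8 endothelial markers were found, led by Pecam1, at no more than 0.0887% in any mouse. The 6 gamma-delta and CD8 markers with a symbol in the matrix, among them Trdc and Tcrg-C2, were all found, led by Klrk1, at no more than 0.0132% in any mouse.

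A few cells carried most of some of these signals. S100a9 led the granulocyte markers, which reached 0.475% and 0.564% of Treg UMIs in WD+F+CCl4 replicates 1 and 2, and 98.5% of the S100a8 UMIs of WD+F+CCl4 replicate 2 came from 1 Treg. Globin transcripts reached 1.05% in HFD+F+CCl4 replicate 2, where 1 Treg held 76.5% of the Hbb-bs UMIs, and in HFD+F+CCl4 replicate 3 1 Treg held 96.5%. One such cell can set a value of its mouse, and the values of S100a8, S100a9 and the globins given below rest on few cells.

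What sets Tregs apart from other CD4 T cells of the same livers was asked with UMI counts summed per mouse and class (edgeR quasi-likelihood test with a block for the mouse, Benjamini-Hochberg adjusted p under 0.05). Of 4149 genes tested beside the genes of the rule, 255 (6.15%) differed, 152 of them higher in Tregs (3.66%) and 103 lower (2.48%). Conventional CD4 T cells were required to hold a Cd4 UMI and Tregs were not, so Cd4 was not read. The rule for conventional CD4 T cells used no NK cell gene, so it did not remove NKT cells, T cells with NK receptors. Their part in the genes lower in Tregs was not tested. With a Cd4 UMI required of Tregs as well, 135 genes differed.

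The difference with the smallest p value was Ikzf2 (chr1:69531214-69687245, minus strand). In Tregs it stood at 1629.6 and 1252 CPM in the controls, 2212, 1535 and 1707 CPM in HFD+F+CCl4 mice and 1615, 1962 and 1791 CPM in WD+F+CCl4 mice. In conventional CD4 T cells it stood at 142 and 71.0 CPM in the controls and between 147 and 279 CPM in the NASH mice. The classes did not overlap, and the log2 difference was 3.13 (SE 0.15, edgeR adjusted p = 1.3e-11). Gm28112 (chr1:69660187-69662061), annotated as a sense-intronic transcript on the same strand inside Ikzf2, had the largest log2 difference, 3.75 (SE 0.37). Reads of an intron of Ikzf2 and of Gm28112 cannot be told apart here.

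The Treg core genes Tnfrsf4, Tnfrsf18, Tnfrsf9 and Tnfrsf1b, TNF receptors that carry costimulatory signals on activated T cells and Tregs, were also higher. Tnfrsf4 (OX40) stood at 413 and 156 CPM in the Tregs of the controls, 733, 572 and 780.2 CPM in HFD+F+CCl4 mice and 561, 824 and 899 CPM in WD+F+CCl4 mice, against 5.46 to 237 CPM in conventional CD4 T cells. In every mouse the Tregs were higher, although the lowest Treg value, in control replicate 2, lay within the range of the conventional cells, and the log2 difference was 2.57 (SE 0.27). Tnfrsf18 (GITR) differed by 1.58 (SE 0.14), Tnfrsf9 (4-1BB) by 2.61 (SE 0.29) and Tnfrsf1b (TNF receptor 2) by 1.47 (SE 0.19), again in the same direction in 8 of 8 mice. All 4 passed the edgeR test, with adjusted p values between 3.4e-07 and 2.7e-05.

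Tnfrsf4 and Tnfrsf18 are neighbours on chromosome 4, with 9551 bases and 0 protein-coding genes between them, and both were higher in Tregs, so their promoters are shown, together with that of Il1rl1, the IL-33 receptor gene that marks tissue Tregs. The windows run from 250 bases before to 50 bases after the start of RefSeq transcripts on GRCm38.p6, plus strand: chr4:156013445-156013744 for Tnfrsf4, chr4:156026072-156026371 for Tnfrsf18 and chr1:40439379-40439678 for the second annotated start of Il1rl1. Capitals mark a match to a motif.
Tnfrsf4: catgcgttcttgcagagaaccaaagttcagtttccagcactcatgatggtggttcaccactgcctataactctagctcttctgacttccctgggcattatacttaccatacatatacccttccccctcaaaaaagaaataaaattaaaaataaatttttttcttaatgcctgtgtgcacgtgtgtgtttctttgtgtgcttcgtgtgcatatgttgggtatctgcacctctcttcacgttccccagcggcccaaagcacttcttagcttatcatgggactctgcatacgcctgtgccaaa
Tnfrsf18: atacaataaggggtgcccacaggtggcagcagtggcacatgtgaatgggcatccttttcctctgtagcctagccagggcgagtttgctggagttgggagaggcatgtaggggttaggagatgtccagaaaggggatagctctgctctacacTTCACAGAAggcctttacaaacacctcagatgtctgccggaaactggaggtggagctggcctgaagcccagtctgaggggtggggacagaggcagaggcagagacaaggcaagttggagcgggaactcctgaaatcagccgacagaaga
Il1rl1: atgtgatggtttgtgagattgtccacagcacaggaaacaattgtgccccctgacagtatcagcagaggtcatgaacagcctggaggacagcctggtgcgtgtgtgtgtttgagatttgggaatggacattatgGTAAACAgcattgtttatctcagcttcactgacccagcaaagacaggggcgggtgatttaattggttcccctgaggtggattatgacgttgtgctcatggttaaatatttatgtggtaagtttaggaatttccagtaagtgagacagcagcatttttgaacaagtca
Each window was searched on both strands for GTAAACA (forkhead, in 3.65% of 32851 promoter windows of this length), TTCNNNGAA (STAT, 8.3%), TGANTCA (AP-1, 7.81%), TGTGGTT (RUNX, 5.27%) and the NF-kappaB motif (0.411%). The Il1rl1 window held 1 forkhead match starting at base -117, the Tnfrsf18 window held 1 STAT match starting at base -99, and the Tnfrsf4 window held none. The window of the first annotated start of Il1rl1 (chr1:40429320-40429619) and those of Il2ra and Ctla4, which are not shown, held none either. A match is a stretch of letters and was not tested as a binding site.

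The marker genes Ctla4 and Il2ra were higher in Tregs in all 8 mice. Ctla4 stood at 264 and 417 CPM in the control Tregs and between 189 and 505 CPM in the NASH Tregs, against 7.16 to 99.1 CPM in conventional CD4 T cells, and differed by 2.69 (SE 0.27, edgeR adjusted p = 1.8e-06). Il2ra stood at 288 and 156 CPM in the control Tregs and between 232 and 445 CPM in the NASH Tregs, against 5.61 to 101 CPM, and differed by 2.18 (SE 0.28, edgeR adjusted p = 3.4e-05). The Treg and conventional values of these genes did not overlap across the mice.

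Of the tissue Treg list, Il1rl1, Klrg1, Gata3, Prdm1 and Penk were also higher. Il1rl1 (chr1:40429570-40465415) stood at 59.1 and 52.2 CPM in the control Tregs, 228, 141 and 148 CPM in the HFD+F+CCl4 Tregs and 122, 115 and 68.0 CPM in the WD+F+CCl4 Tregs, against at most 34.5 CPM in conventional CD4 T cells, of which 20 of 1604 held a UMI, so the gene entered the test through the Tregs and its fitted value rests on few counts in the other class. The log2 difference was 3.503 (SE 0.3448, edgeR adjusted p = 1.3e-06). Klrg1, an inhibitory receptor of terminally differentiated lymphocytes, differed by 3.08 (SE 0.24) in 8 of 8 mice. Gata3, the transcription factor that drives the IL-33 receptor in T helper 2 cells and tissue Tregs, differed by 0.99 (SE 0.17), and Prdm1 (Blimp-1) by 1.17 (SE 0.29). Penk, which encodes proenkephalin, differed by 2.54 (SE 0.49, edgeR adjusted p = 0.0022), yet its UMIs came from 49 Tregs. The repair factor Areg was found in 20 Tregs and the cytokine Il10 in 7, too few to enter the test.

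Grouped by lists, the 22 genes of the Treg core list had 15 members tested, of which 11 were higher in Tregs and 0 lower, with a median log2 difference of 1.39 against -0.01 over all genes tested. Beside those named, Icos, Izumo1r, Swap70, Nt5e, Nrp1 and Capg passed. The tissue Treg list had 17 members tested, 5 higher and 0 lower, with a median of 0.46. Its most abundant members S100a6, S100a4 and Lgals1 did not pass (log2 differences of 0.66, 0.83 and 0.35). Tcf7, Bcl2 and Satb1, genes of resting T cells, were lower. Among other such genes, Lef1 (-0.48), Klf2 (-0.16), S1pr1 (0.03) and Il7r (0.49) did not pass. The lists share members and were chosen with results of these data known.

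Some genes of the cytotoxic list, and single genes of other lists, were lower in Tregs. Of 6 tested cytotoxic genes, Ccl5, Nkg7, Klrk1 and Ctsw were lower and none was higher, with a median of -1.15. Klrd1 and Gzmb did not pass. The chemokine Ccl5 stood at 636 and 1043 CPM in the control Tregs and between 192 and 937 CPM in the NASH Tregs, against 1118 to 14921 CPM in conventional CD4 T cells. It was lower in Tregs in 8 of 8 mice, by 2.33 on the log2 scale (SE 0.39, edgeR adjusted p = 0.00072), and the conventional values were highest in HFD+F+CCl4 replicate 1 and WD+F+CCl4 replicate 3. The homing receptor Cxcr6 had a log2 difference of -2.33 (SE 0.24), the naive and memory T cell factor Tcf7 one of -2.31 (SE 0.24), the survival factor Bcl2 one of -2.06 (SE 0.25) and the cytokine Tnf one of -1.59 (SE 0.38).

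Signalling lists were counted in the same way. Of 9 tested genes of the T cell receptor response, Tnfrsf4, Tnfrsf9 and the NF-kappaB inhibitor Nfkbia were higher and the phosphatase Dusp2 was lower, with a median of 0.37. Of 7 tested TGF-beta pathway genes, the integrin chain Itgav (log2 difference 1.20) and the repressor Skil (1.17) were higher, with a median of 0.25. Of 9 tested IL-2 pathway genes only Il2ra was higher and only Bcl2 lower. Of 11 chemokine receptor and integrin genes 0 were higher, and Cxcr6 and Itgal were lower. Of 6 tested checkpoint genes Ctla4 was higher and Cd96 lower, while Pdcd1 (PD-1) had a log2 difference of 0.14.

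Several functional lists had few or no calls. Among 12 tested glycolysis genes, 8 lipid handling genes, 8 heat shock genes and 5 MHC class II genes, 0 passed in either direction. Of 18 tested cycling genes only Pcna passed, with a log2 difference of -0.53, and the proliferation marker Mki67 stood at 0.35 (SE 0.19). Of 15 interferon response genes Ifi27l2a (1.14) and Gbp7 (0.44) were higher. Of 10 immediate early genes Junb (0.45) was higher. Among markers of other cells, Ighm was higher in Tregs in 8 of 8 mice (1.98), and S100a8 in 7 of 8 (2.18). Ighm stood at 507 to 887 CPM in Tregs although the rule removed cells with Cd79a UMIs. In the NASH mice the share of B cell markers was 0.0703% to 0.108% in Tregs against 0.0108% to 0.0408% in conventional CD4 T cells. This share counts Ighm itself, so it partly restates the Ighm difference. Igkc, the other B cell marker tested, did not pass, with a log2 difference of -0.04 (edgeR adjusted p = 0.977). The part of B cell transcripts in the Ighm result was not tested.

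**Figure D2:**
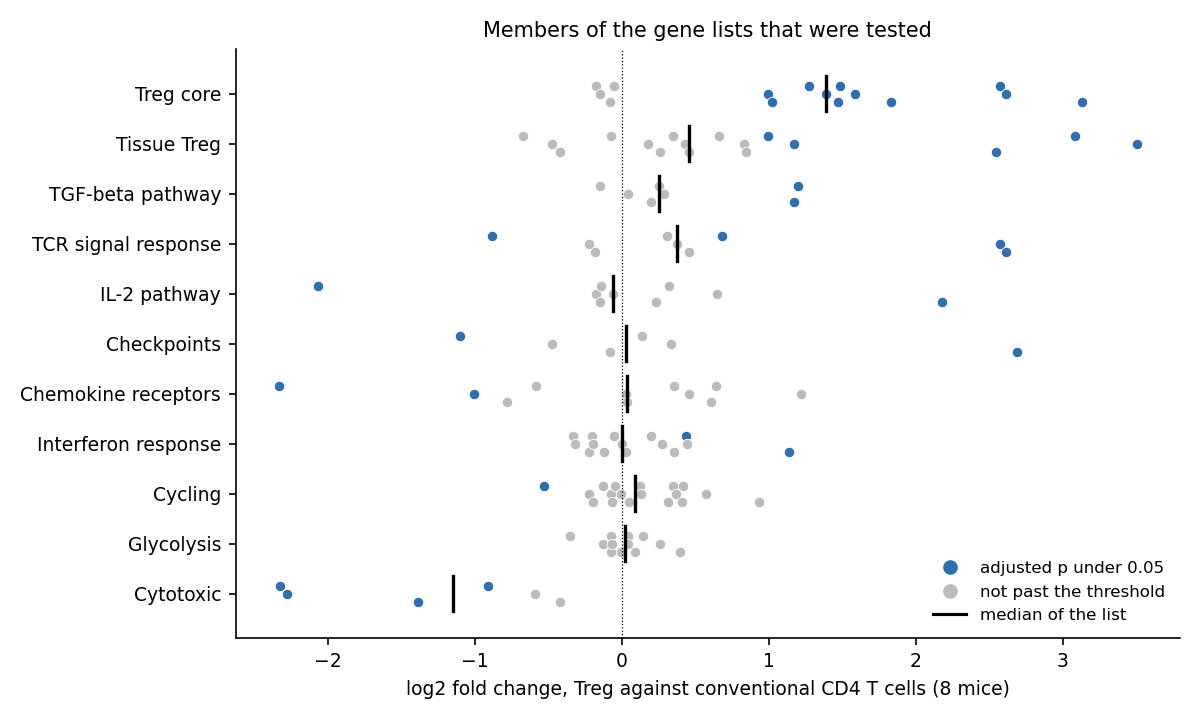
Log2 fold change of each tested list member (x axis) in Tregs against conventional CD4 T cells over 8 mice, by gene list (y axis); blue points passed an adjusted p of 0.05, grey points did not, and black lines mark list medians. The Treg core list lies to the right, with 11 of 15 members past the threshold, and the cytotoxic list to the left, with 4 of 6.

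Against CD8 T cells (CD3 and CD8 UMIs, no Foxp3), 694 of 5408 genes (12.8%) differed, 352 higher in Tregs (6.51%) and 342 lower (6.32%). The log2 difference was 7.39 (SE 0.33) for Il1rl1, 4.99 (SE 0.37) for Tnfrsf4, 4.12 for Il2ra and 4.10 (SE 0.19) for Ikzf2. Il1rl1 was found in only 4 of 2838 CD8 T cells, at 0 to 1.17 CPM, so its fitted value depends on very few counts and it entered the test through the Tregs. The skin- and Treg-homing receptor Ccr4 differed by 4.48 (SE 0.37) and the transcription factor Maf by 2.67 (SE 0.23). All 12 tested cytotoxic genes were lower, with a median of -3.90 against -0.02 over all genes. Among them Gzma (granzyme A) had a log2 difference of -6.39 (SE 0.49) and Prf1 (perforin) one of -4.17 (SE 0.43). Dapl1 was the most strongly lowered gene at -6.76 (SE 0.45). The Treg core list had 13 of 17 members higher and 1, Ikzf3 (Aiolos), lower.

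The signalling lists showed more calls against CD8 T cells than against conventional CD4 T cells, where 12.8% and 6.15% of all genes were called. Of 9 TGF-beta pathway genes Skil, Ski, Itgav and Tgfb1 were higher. Of 11 IL-2 pathway genes Il2ra, Socs2, Stat5b and Il2rg were higher and Bcl2 and Jak1 lower. Both comparisons used the same Treg libraries. Of the 152 genes higher than in conventional CD4 T cells, 127 were also higher than in CD8 T cells (83.6% of the first list and 36.1% of the second), and of the 103 lower genes 76 were also lower (73.8% and 22.2%).

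**Figure D3:**
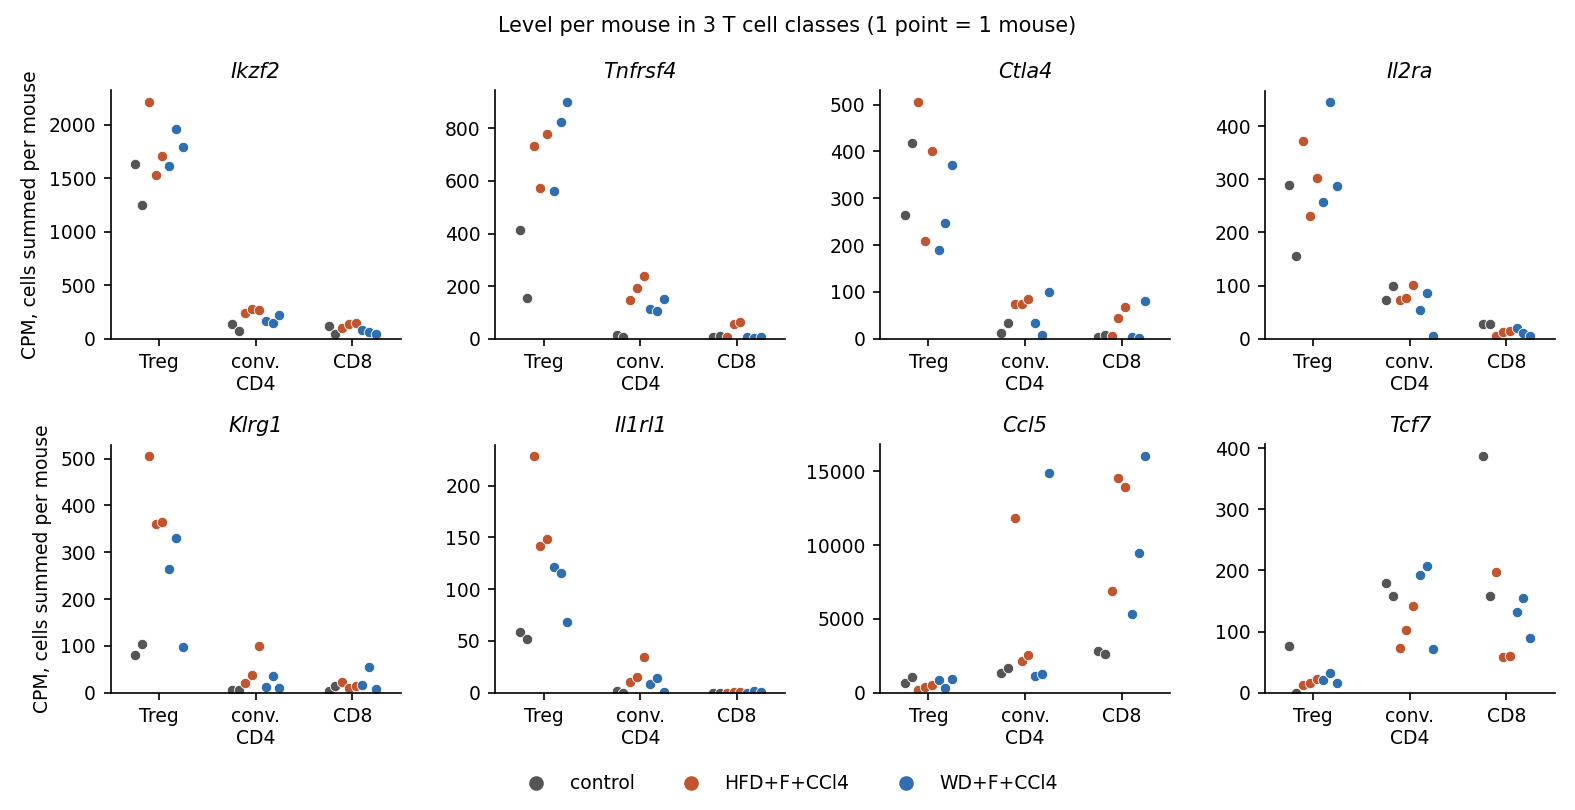
CPM (y axes, linear, from 0) of 8 genes in cells summed per mouse, for Tregs, conventional CD4 T cells and CD8 T cells (x axes), 1 point per mouse colored by group. Within each mouse Ikzf2, Tnfrsf4, Ctla4, Il2ra, Klrg1 and Il1rl1 were highest in Tregs, and Ccl5 and Tcf7 were lowest there.

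The Tregs were not uniform. At 1000 UMIs per cell, 117 of 454 Tregs (25.8%) held a Klrg1 or Il1rl1 UMI. The cells with Klrg1 or Il1rl1 made up 12.2% and 11.1% in the controls, 36.7%, 23.6% and 35.3% in HFD+F+CCl4 mice and 28.3%, 27.3% and 16.7% in WD+F+CCl4 mice, so all 6 NASH mice lay above both controls. The 11.1% of control replicate 2 was 1 of 9 cells. Cells with a Mki67 or Top2a UMI, as cycling cells have, made up 13.7% of all 454.

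How Tregs of the fibrotic livers differed from Tregs of control livers was tested in 1 edgeR fit of the 3 groups. In NASH against control, 51 of 3384 genes (1.51%) passed, 28 higher (0.827%) and 23 lower (0.68%). This contrast rests on 85 control cells, of which 74 came from 1 mouse. Without control replicate 1, 13 genes passed, and of the 51 only Gm10076 and the immunoglobulin light chain gene Igkc were among them; without control replicate 2, 39 passed, of which 29 were among the 51. HFD+F+CCl4 against control gave 61 genes (1.8%), 33 higher (0.975%) and 28 lower (0.827%). WD+F+CCl4 against control gave 11 genes (0.325%), 6 higher (0.177%) and 5 lower (0.148%), and both used the same 2 control mice. Without control replicate 1 these counts were 11 and 12, and of the 61 and of the 11 only Gm10076 and Igkc were among them.

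Klrg1, Pdcd1, Tox and Capg were among the genes higher in NASH. Klrg1, Tox and Capg did not have the largest differences. Larger ones that passed included Cst7 (log2 difference 3.91), Camk2n1 (3.26), Wfdc17 (3.09), Bmyc (3.015) and Gm4956 (2.84). Klrg1 stood at 79.9 and 104 CPM in the control Tregs, 505, 361 and 363 CPM in the HFD+F+CCl4 Tregs and 264, 329.7 and 98.3 CPM in the WD+F+CCl4 Tregs. Of the measured values only that of WD+F+CCl4 replicate 3 overlapped with the controls, and the log2 difference was 1.86 (SE 0.46, edgeR adjusted p = 0.0479). The inhibitory receptor Pdcd1 stood at 13.9 and 0 CPM in the controls, 180.3, 138 and 176 CPM in HFD+F+CCl4 mice and 60.8, 49.5 and 181 CPM in WD+F+CCl4 mice. The measured values did not overlap and the log2 difference was 3.29 (SE 0.64, edgeR adjusted p = 0.0194). However, 0 UMIs in control replicate 2 allow up to 156 CPM, above the NASH values of 138, 60.8 and 49.5 CPM, so separation from that mouse is not shown. Pdcd1 entered the test through the NASH Tregs, and its fitted value rests on few control counts. Tox, a transcription factor of chronically stimulated T cells, rose from 62.5 and 104 CPM to between 178 and 313 CPM (log2 difference 1.88, SE 0.40, edgeR adjusted p = 0.0255). The actin-capping protein gene Capg rose from 243 and 209 CPM to between 534 and 748 CPM (1.44, SE 0.33, edgeR adjusted p = 0.0361). In control replicate 2, with 19172 Treg UMIs in all, the values of Klrg1, Tox and Capg also rest on few UMIs. Whether the NASH values of these genes lie beyond the counting error of that mouse was not tested.

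Satb1 and Ripor2 were among the genes lower in NASH. Satb1, a chromatin organizer of naive T cells, had a log2 difference of -1.93 (SE 0.44, edgeR adjusted p = 0.0361). It stood at 226 CPM in control replicate 1 and at 0 in control replicate 2, where 0 UMIs allow up to 156.5 CPM. Its fitted direction turned without control replicate 1, but a comparison with 0 UMIs at that depth cannot decide the direction. Ripor2, an inhibitor of RhoA in T cells, stood at 372 and 261 CPM in the controls and between 0 and 142 CPM in NASH (-2.12, SE 0.36, edgeR adjusted p = 0.00707).

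By list, 2 of 18 tested tissue Treg genes were higher (Klrg1 and the IL-35 chain Ebi3), with a median of 0.65 against 0.02 over all genes. Of 4 tested checkpoint genes, Pdcd1 and Tox were higher and the median was 1.56. Of 17 interferon response genes the GTPase Igtp was lower and the median was -1.04. Of 19 Treg core genes Capg was higher and the median was 0.58. The markers Il2ra and Ctla4 did not pass. Among marker lists of other cells, the median was 2.83 for 7 tested granulocyte markers (0 past the threshold) and 1.34 for 11 tested myeloid markers (C1qb higher), both above those of the Treg core and tissue Treg lists, and -1.34 for 2 tested B cell markers (Igkc lower). Their part in the Treg list medians was not tested. The immediate early list, with 0 of 11 genes past the threshold and a median of 1.69, made up 0.622% of Treg UMIs in HFD+F+CCl4 replicate 1 and 0.314% in WD+F+CCl4 replicate 3, against 0.0991% to 0.180% in the other 6 mice.

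Other genes in this comparison are known from other cell types. Mup3, Serpina3k, Apoa2 and Alb, products of hepatocytes, were 4 lower genes of the 10 tested hepatocyte-secreted genes, whose median was -2.49. Mup3 stood at 271 and 156 CPM in the control Tregs and at no more than 24.0 CPM in NASH Tregs, but also at 590.4 and 565 CPM in control B cells and at no more than 33.6 CPM in NASH B cells. The immunoglobulin genes Igkc and Igha were lower as well. mt-Nd3 had 0 UMIs in the Tregs of both controls and 644 to 1542 CPM in NASH Tregs, Gm28438 stood at 330.1 and 522 CPM in the control Tregs and at 0 in every NASH mouse, and Gm10076 had a log2 difference of 3.09 in Tregs with similar levels in B cells (275 and 122 CPM in control, 1222 to 2477 CPM in NASH). The complement gene C1qb, a macrophage product, had 0 UMIs in control Tregs and 40.5 to 337 CPM in NASH Tregs. In control replicate 2, 0 UMIs allow up to 156.5 CPM. That is above 141 CPM in HFD+F+CCl4 replicate 2 and 120.9 CPM in WD+F+CCl4 replicate 3, so separation from that control is not shown.

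Each called gene was also looked up in B cells and CD8 T cells of the same mice. Of the 51 genes, 17 differed at least 2-fold in the same direction without overlap of the groups in B cells, 22 did so in CD8 T cells, and 23 did so in neither class. Of all 3384 genes tested, each taken in the direction of its own difference in Tregs, 3.49% met this rule in B cells, 3.28% in CD8 T cells and 94.3% in neither. In conventional CD4 T cells 24 of the 51 did so (3.72% of all genes tested), as did 33 of the 61 genes of HFD+F+CCl4 (6.21%) and 8 of the 11 genes of WD+F+CCl4 (5.26%). Klrg1, Pdcd1, Tox, Capg and Satb1 were among the 24. Among the 28 higher genes 15 were in neither, and among the 23 lower genes 8 were in neither. All 11 genes called in WD+F+CCl4 against control moved in this way in B cells or CD8 T cells, as did all but 25 of the 61 genes of HFD+F+CCl4 against control. Of the 11, 8 did so in B cells and 9 in CD8 T cells, against 6.24% and 4.55% of all genes tested, of which 91.2% moved in neither. Of the 61, 23 did so in B cells and 29 in CD8 T cells, against 5.29% and 4.93% of all genes tested, of which 91.4% moved in neither. Pdcd1 stood at no more than 4.37 CPM in B cells of any mouse, while CD8 T cells held 4.53 and 6.99 CPM in the controls and 13.9 to 369 CPM in NASH. Tox stood at no more than 12.4 CPM in B cells, but at 28.1 and 38.2 CPM in control and 107 to 393 CPM in NASH conventional CD4 T cells, and it also moved in CD8 T cells. Capg moved in B cells as well, from 162 and 103 CPM to between 208 and 334 CPM. What moved the genes that also differed in other classes was not tested.

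**Figure D4:**
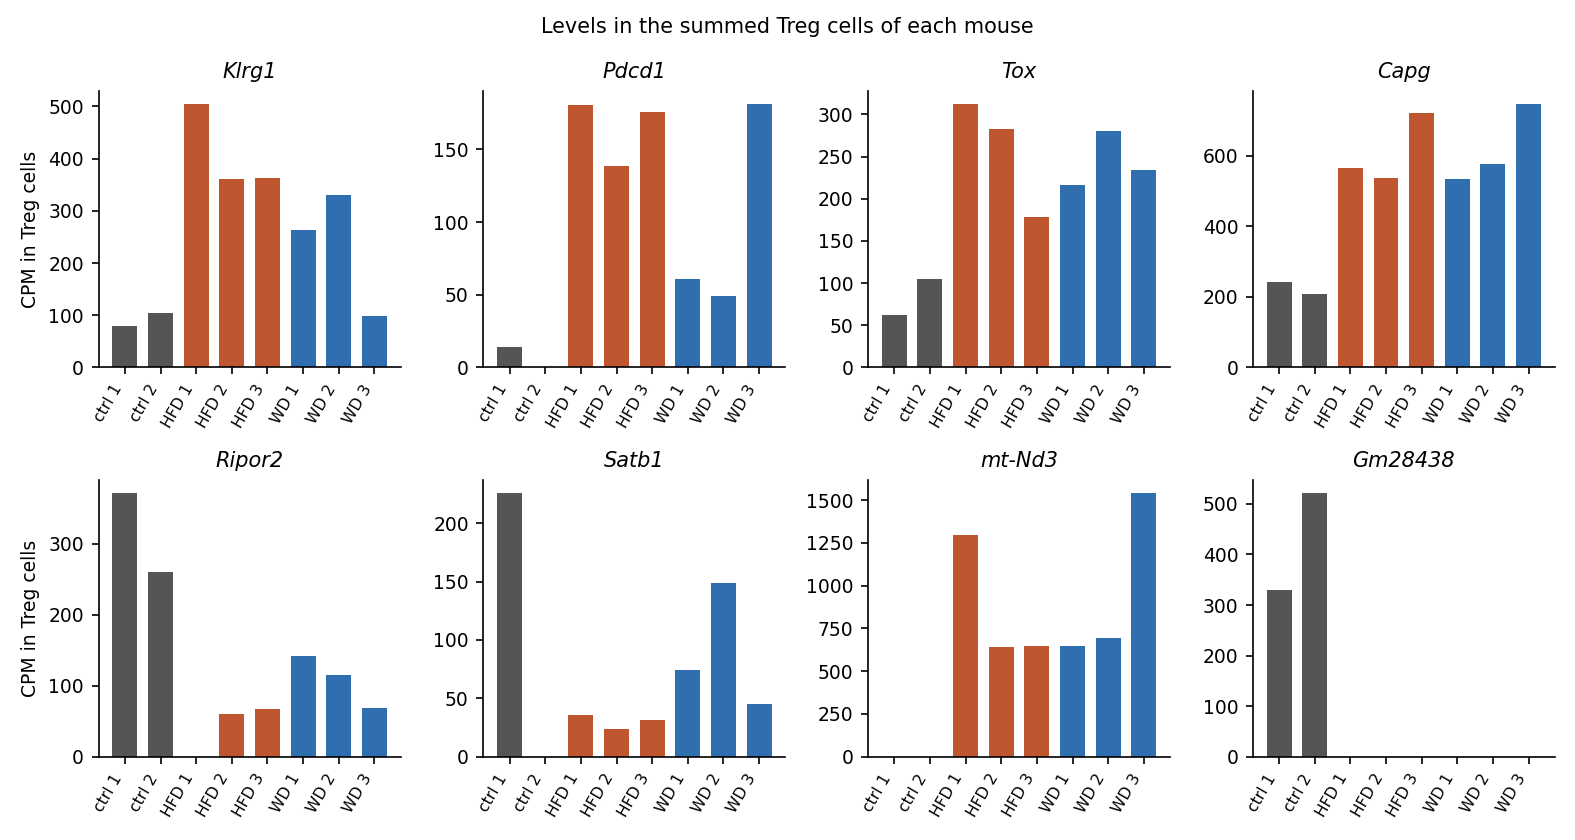
CPM (y axes, linear, from 0) of 8 genes in the summed Tregs of each mouse (x axes, 1 bar per mouse, colored by group). The measured values of Pdcd1, Tox and Capg are higher in all 6 NASH mice than in both controls and those of Ripor2 are lower. For Pdcd1, 0 UMIs in control replicate 2 allow up to 156.5 CPM, so separation from that mouse is not shown. Klrg1 overlaps in WD+F+CCl4 replicate 3 (98.3 CPM), and mt-Nd3 and Gm28438 are at 0 in the Tregs of one arm.

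Each model was also compared with the controls on its own. In HFD+F+CCl4 against control the log2 difference was 2.29 (SE 0.47) for Klrg1, 3.59 (SE 0.64) for Pdcd1, 1.90 (SE 0.41) for Tox and 2.81 (SE 0.62) for Penk, all past the edgeR threshold. Larger differences that passed included those of Axl (4.28), Cst7 (3.84) and Nr4a1 (3.75). In WD+F+CCl4 against control the values were 1.44 (SE 0.50) for Klrg1, 2.98 (SE 0.71) for Pdcd1 and 1.86 (SE 0.43) for Tox, which did not pass (edgeR adjusted p = 0.25, 0.0743 and 0.0617). The genes that passed there were mt-Nd3, Cst7, Wfdc17, Gm10076, Ifi27 and the lymphotoxin gene Ltb as higher, and Gm28438, Mup3, Serpina3k, Alb and Igkc as lower. Ltb stood at 299 and 209 CPM in the control Tregs and at 926, 791 and 990.1 CPM in the WD+F+CCl4 Tregs, with no overlap, and at 321 and 273 CPM against 926, 852 and 473 CPM in conventional CD4 T cells of the same mice.

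Compared directly, Tregs of the 2 models had 0 genes past the edgeR threshold, with 157 genes at an unadjusted p under 0.05, and DESeq2 called 1. The smallest p values belonged to globin genes, whose UMIs came mostly from single Tregs in HFD+F+CCl4 replicates 2 and 3, to the MHC class II gene H2-Ab1 (log2 difference -2.38, edgeR adjusted p = 0.149) and to Ifi27l2a, an interferon-induced gene. All 5 tested MHC class II genes had negative log2 differences, with a median of -1.78, and 0 passed. H2-Ab1, Ifi27l2a and the globin genes passed in at least 1 alternative setting but not in all of them. Ifi27l2a stood at 661, 1300.1 and 1398 CPM in the HFD+F+CCl4 Tregs and at 3683, 3165 and 2388 CPM in the WD+F+CCl4 Tregs. These groups did not overlap, but the log2 difference of 1.46 (SE 0.33) had an edgeR adjusted p of 0.223, and the controls, at 1998 and 4173 CPM, spanned the WD+F+CCl4 values.

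Finally, the change between control and NASH was compared between Tregs and conventional CD4 T cells of the same mice, as an interaction in 1 edgeR fit with a block for the mouse. It differed for 38 of 6739 genes (0.564%), 15 with a higher NASH effect in Tregs (0.223%) and 23 with a lower one (0.341%). Among the 23 was S100a4, a calcium-binding protein of motile and memory T cells. It stood at 1581 and 1773 CPM in control Tregs and between 1352 and 1872 CPM in NASH Tregs. In conventional CD4 T cells it stood at 192 and 317 CPM in control and between 816 and 1419 CPM in NASH. The ranges of control and NASH overlapped in Tregs and were separate in conventional CD4 T cells, and the NASH effect was 2.29 lower in Tregs on the log2 scale (SE 0.32, edgeR adjusted p = 8.5e-05).

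S100a6, another calcium-binding protein, was arranged like S100a4. It stood at 2835 and 2556 CPM in control Tregs and 1797 to 3165 CPM in NASH Tregs, against 455 and 634 CPM in control and 1266 to 2376 CPM in NASH conventional CD4 T cells. For Tnfrsf4 the conventional cells stood at 13.6 and 5.46 CPM in control and 104 to 237 CPM in NASH, while the Tregs were at 413 and 156 CPM in control and 561 to 899 CPM in NASH, so control and NASH were separate in both classes. The differences in effect were -1.94 (SE 0.29) for S100a6, -2.70 (SE 0.42) for Tnfrsf4, -1.81 (SE 0.30) for the galectin gene Lgals1, -1.97 (SE 0.45) for Ctla4 and -2.16 (SE 0.50) for Prdm1. All passed the edgeR threshold. The lymphocyte egress genes S1pr1 (-2.01, SE 0.41) and Klf2 (-1.75, SE 0.37) also passed, with Klf2 at 327 and 261 CPM in control and 83.1 to 297 CPM in NASH Tregs, and at 129.6 and 137 CPM in control and 68.3 to 373 CPM in NASH conventional cells.

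Among the 15 genes with a higher effect in Tregs, Ccr9 (4.87, SE 0.69) and Siglech (4.45, SE 0.77) are both known from plasmacytoid dendritic cells. In conventional CD4 T cells Siglech stood at 157 and 377 CPM in control and 0 to 123 CPM in NASH, and Ccr9 at 146 and 475 CPM against 0 to 28.7 CPM, whereas only 16 and 18 Tregs held a UMI of these genes. The part of such transcripts in the 38 genes was not tested. The interaction rested on the same small control sample. Without control replicate 1, 18 genes passed and only Ccr9 and Igkc of the 38 were among them; without control replicate 2, 29 passed, 25 of them among the 38; and without the block for the mouse 0 passed, with 362 at an unadjusted edgeR p under 0.05 (DESeq2 with the block called 15).

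**Figure D5:**
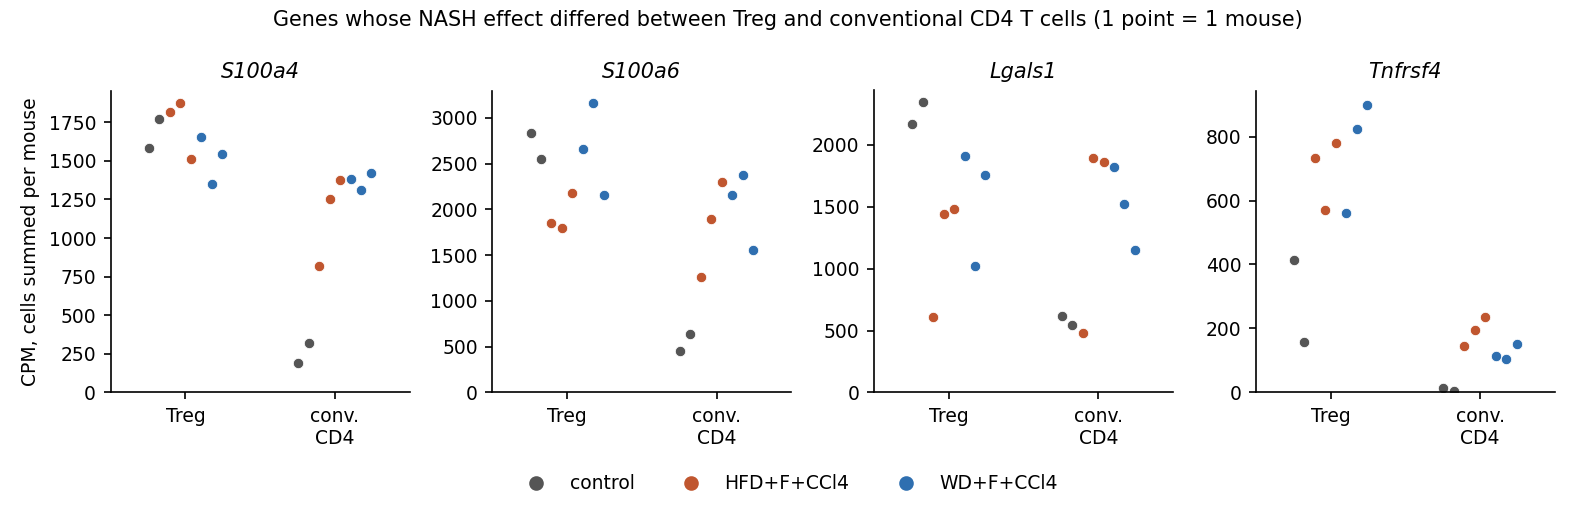
CPM (y axes, linear, from 0) of S100a4, S100a6, Lgals1 and Tnfrsf4 in Tregs and conventional CD4 T cells (x axes), 1 point per mouse colored by group. Conventional CD4 T cells of both controls lie near the bottom for S100a4, S100a6 and Tnfrsf4 (192 and 317 CPM for S100a4), and control Tregs lie within or near the NASH range for S100a4 and S100a6.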

How the data were processed

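Per the labels and the study's methods, each mouse gave 1 10x Genomics 3' (V3) library of dissociated liver, aligned to the mouse genome GRCm38. The authors deposited UMI counts per gene and cell as 1 matrix of all 8 libraries, whose barcode suffix gives the mouse; its header names Cell Ranger 4.0.0, an earlier version than the methods give. The counts are whole numbers and were not normalized, and 0 columns of values were left unmatched.

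Barcodes with over 500 genes and under 25% mitochondrial UMIs were kept. Cell classes were set on raw UMIs; conventional CD4 T cells needed a Cd4 UMI and Tregs did not. The members and lists were chosen with earlier results of these data known. Counts were summed per mouse and class, filtered with filterByExpr (minimum count 10), normalized with TMM and tested with edgeR 4.0.16 (quasi-likelihood, Benjamini-Hochberg adjusted p under 0.05), with the mouse as block between classes and 1 fit of 3 groups within Tregs. CPM were taken over all UMIs of the summed cells of a mouse. Shares were compared between mice by exact two-sided permutation tests with exact 95% binomial intervals (scipy 1.17.1), and cells were thinned to 1000 UMIs for detection. Nothing in the sources used here ties libraries to preparation batches. Doublets were not removed; a Scrublet score at 0.8% per 1000 barcodes served only as an alternative. Eligible to be named were the marker genes, in each comparison the 10 largest rises and 10 largest falls past the threshold with an average log2 CPM over 5 (where none passed, the 3 smallest p values in each direction), and from each list up to 6 members by average expression and those past the threshold. Only part of the eligible genes is printed, and that part was not set by a rule. Areg, Il10, Mki67, H2-Ab1 and the genes compared over whole libraries were named after their values were seen. Genes of the gate took part in the fits and in the adjustment of p values but were not counted as calls. The edgeR procedure was tested on simulated data. Alternatives were DESeq2 1.42.0, no filter, other cell rules, thinning, the replicate block and leaving out each mouse. Gene positions come from GENCODE M21. A withheld gene and the results that need it are not reported here.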

Additional observations from a re-analysis of the deposited data

Results flagged for a closer look

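The change between control and NASH differed between Tregs and conventional CD4 T cells for 38 genes in a test of the difference itself (edgeR interaction term, Benjamini-Hochberg adjusted p under 0.05). The values below are Treg minus conventional CD4 T cell log2 fold changes. They were positive for Ccr9 (4.87), Siglech (4.45), Gm4956 (4.14), S100a8 (4.02), S100a9 (3.83), Mpeg1 (3.27), Cst7 (3.15), Ckb (2.87), Tyrobp (2.63) and Bmyc (2.62). S100a8 and S100a9 are granulocyte genes, and 98.5% of the S100a8 UMIs in the Tregs of WD+F+CCl4 replicate 2 came from 1 cell.

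They were negative for 1500009L16Rik (-3.71), Gprin3 (-3.16), Zdhhc2 (-2.84), Tnfrsf4 (-2.70), S100a4 (-2.29), Ccnb2 (-2.18), Prdm1 (-2.16), Ripor2 (-2.15), Rasa3 (-2.11) and Lgals3 (-2.02). Without control replicate 1 the values of 1500009L16Rik and Gprin3 changed sign.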

How the results depend on the processing

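The share of Tregs among T gate cells kept its direction in every alternative run. With 1 mouse left out at a time, its differences ranged from 7.497 to 10.6 points (NASH against control), 11.8 to 16.5 (HFD+F+CCl4 against control), 3.67 to 5.47 (WD+F+CCl4 against control) and -11.8 to -7.18 (WD+F+CCl4 against HFD+F+CCl4). The share of all kept cells was not stable. Its NASH difference was -0.0133 points after thinning to 1000 UMIs, -0.133 at 2000 UMIs, -0.227 in cells over 1000 genes, -0.0898 without control replicate 2 and -0.0186 without HFD+F+CCl4 replicate 3, and the HFD+F+CCl4 difference was -0.00991 in cells over 1000 genes. With 1 mouse left out these differences ranged from -0.0898 to 0.332 (NASH), 0.122 to 0.622 (HFD+F+CCl4), -0.323 to 0.0986 (WD+F+CCl4, the highest without control replicate 1) and -0.735 to -0.235 (WD+F+CCl4 against HFD+F+CCl4).

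Counts of genes moved with the settings; the causes were not tested. With no filter on low counts they were 419 (against conventional CD4 T cells), 1127 (CD8 T cells), 116 (NASH), 118 (HFD+F+CCl4), 53 (WD+F+CCl4), 18 (WD+F+CCl4 against HFD+F+CCl4) and 64 (interaction). With a Cd4 UMI required they were 135, 381, 11, 17, 2, 5 and 75 in that order. Thinning gave 60 and 249 between classes, 17 (NASH), 16 (HFD+F+CCl4), 2 (between models) and 7 (interaction). DESeq2 gave 20 (NASH), 14 (HFD+F+CCl4), 1 (between models) and 15 (interaction). At least 2 Foxp3 UMIs gave 7 (WD+F+CCl4) and 87 (interaction). Between models, at least 20 Tregs a mouse gave 1 and hepatocyte-secreted genes at most 1% of UMIs gave 5. Both of these settings, like those on Cd4, Foxp3 and thinning, dropped control replicate 2, so the lone control was assumed to vary like the other groups. The hepatocyte limit and the CD4 denominators were chosen after seeing the data.

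Mice sharing a replicate number did not deviate together (correlations between -0.0937 and 0.0413), so the numbers do not pair them. With the replicate block 25 (NASH), 29 (HFD+F+CCl4) and 5 (between models) genes passed. Between classes, no replicate block for the mouse gave 118, 405 and, for the interaction, 0.

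With 1 mouse left out, counts ranged from 179 to 263 (conventional CD4), 533 to 726 (CD8), 13 to 64 (NASH), 11 to 76 (HFD+F+CCl4), 4 to 12 (WD+F+CCl4), 0 to 9 (between models) and 18 to 53 (interaction). NASH gave 13 without control replicate 1, 23 without HFD+F+CCl4 replicate 3 and 32 when WD+F+CCl4 replicate 1 or 3 was left out. HFD+F+CCl4 gave 11 without control replicate 1, 32 without HFD+F+CCl4 replicate 2 and 19 without replicate 3. WD+F+CCl4 gave 7, 4 and 5 without WD+F+CCl4 replicates 1, 2 and 3. The interaction gave 18 without control replicate 1, 25 without HFD+F+CCl4 replicate 2 and 22 without HFD+F+CCl4 replicate 3. Without control replicate 1 the fitted log2 differences of Satb1 (6.19 in NASH, 5.46 in HFD+F+CCl4), 1500009L16Rik (3.04) and Gprin3 (4.74) changed sign. For Satb1 the remaining control held 0 UMIs, with a limit of 156.5 CPM, so those fitted values decide neither size nor direction. The lowest values with another mouse left out were -2.256, -2.966, -3.908 and -3.567 in the same order. Thinning turned Apoe against CD8 T cells to 0.02885. The 11 Tregs and 19172 UMIs of control replicate 2 limit every comparison with control.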

Other observations

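The hemoglobin gene Hbb-bs stood at 108 and 1513 CPM in the control Tregs, 0, 5850.2 and 2001 CPM in the HFD+F+CCl4 Tregs and 0, 33.0 and 15.1 CPM in the WD+F+CCl4 Tregs. The values within the HFD+F+CCl4 group ranged wider than the means of the groups. Cells with a Mki67 or Top2a UMI made up 10.8% to 16.7% of Tregs in 7 of the 8 mice and 4 of 9 thinned Tregs in control replicate 2.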
